A study of Mus musculus with 27 samples.

Results

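The genes of the cytosolic ribosomal proteins were examined in B220+ cells of a mouse lymphoma model. All symbols of the expression tables that match the names of cytosolic ribosomal proteins were taken, leaving out the S6 kinases, whose symbols begin with Rps6k. This gave 91 of 23382 symbols. They comprise 46 large subunit proteins, 31 small subunit proteins, 8 paralogs, 5 symbols named as pseudogenes by -ps and a number, and Rps19bp1, which is no ribosomal protein. The classes follow the names, since RefSeq lists Rpl34-ps1 and Rpl31-ps12 as protein coding and the paralog Rps4y2 as a transcribed pseudogene. The 77 genes of both subunits are called canonical below. Fau also encodes a ribosomal protein, fused to a ubiquitin-like protein, and carries another name, so it was counted with the translation genes.

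All groups carried the VavPBcl2 transgene, in which the Vav promoter, active across blood cells, drives Bcl2, an inhibitor of apoptosis. Per the labels of the expression and ChIP-seq samples, haematopoietic stem cells of E13.5 fetal liver were infected with the empty vector or with MSCV-SHMT2, a retroviral vector for the mitochondrial serine hydroxymethyltransferase. They were injected into irradiated wild type mice, whose own surviving cells are not marked apart, and splenic B220+ cells of the resulting tumours were collected. The sources used here do not give the recipients' age, and the ERRBS labels name only B220+ cells and the vector. There were 3 vector and 3 SHMT2 libraries of RNA-seq. In the same order, H3K4me3 ChIP-seq had 2 and 3 libraries and H3K4me1 ChIP-seq 2 and 2. DNA methylation was read by enhanced reduced representation bisulfite sequencing (ERRBS) of 3 and 3 libraries. The labels do not tell separate animals apart, and the p-values therefore measure only how far these samples spread, which may be technical.

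Ribosomal proteins coat the ribosomal RNA of the large and the small subunit, and most of them are needed in equal copy numbers. Their mRNAs usually begin with a C followed by a run of pyrimidines, the 5′ terminal oligopyrimidine or TOP motif, through which mTORC1 and LARP1 set their translation. In mammals nearly every one of these genes has processed pseudogenes, intronless copies that can share reads with the parent gene, and loss of single members is known from Diamond-Blackfan anaemia and from leukaemia.

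Shmt2 was listed at 174, 223 and 157 TPM in the vector libraries and at 244, 345 and 259 TPM in the SHMT2 libraries, so the groups did not overlap (limma adjusted p = 0.22). TPM are abundances per transcript length that sum to an equal amount in every library, and the sequencing depth behind them is unknown. The 10 B-cell markers were detected in every library, with a summed level of 6855 to 9427 TPM with vector and 9303 to 9427 TPM in SHMT2. Summed erythroid markers stood at 177, 6524 and 1325 TPM in vector replicates 1, 2 and 3 and at 172 to 318 TPM in SHMT2, with the 4 haemoglobin genes of that list at 0 everywhere. Macrophage and myeloid markers, 14 of 15 in the table, summed to 213, 1368 and 1149 TPM with vector and to 289 to 437 TPM in SHMT2. Vector replicates 2 and 3 thus stood apart in markers of other blood cells, and for named genes the log2 fold change without them is given where it moved by over 1.5 times. Plasma cell markers were highest in SHMT2 replicate 1, at 4109 TPM, against 1792 to 3131 TPM with vector and 2186 and 2223 TPM in the other SHMT2 libraries, and T-cell markers likewise, at 64.7 TPM against 37.9 to 53.9 TPM.

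Per transcript length, the canonical members spanned the whole range of the tables. Rpl14 was highest, at a mean of 1888 TPM over the 6 libraries, and Rpl4, whose protein lines the exit tunnel of the nascent chain, had a mean of 1591 TPM. Of the 77 canonical genes, 30 had a mean of at least 100 TPM, 17 lay between 10 and 100 TPM, 25 between 1 and 10 TPM and 5 below 1 TPM. Those 5 were Rpl38 at 0.745 TPM, Rpl34 at 0.444 TPM, Rps23 at 0.411 TPM, Rpl27 at 0.357 TPM and Rpl26, which was listed at 0 in all 6 libraries. Proteins mostly present in equal number in the ribosome thus had listed transcript levels over 3 orders of magnitude apart, in both subunits. A listed 0 was not read as absence of the transcript.

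**Figure D1:**
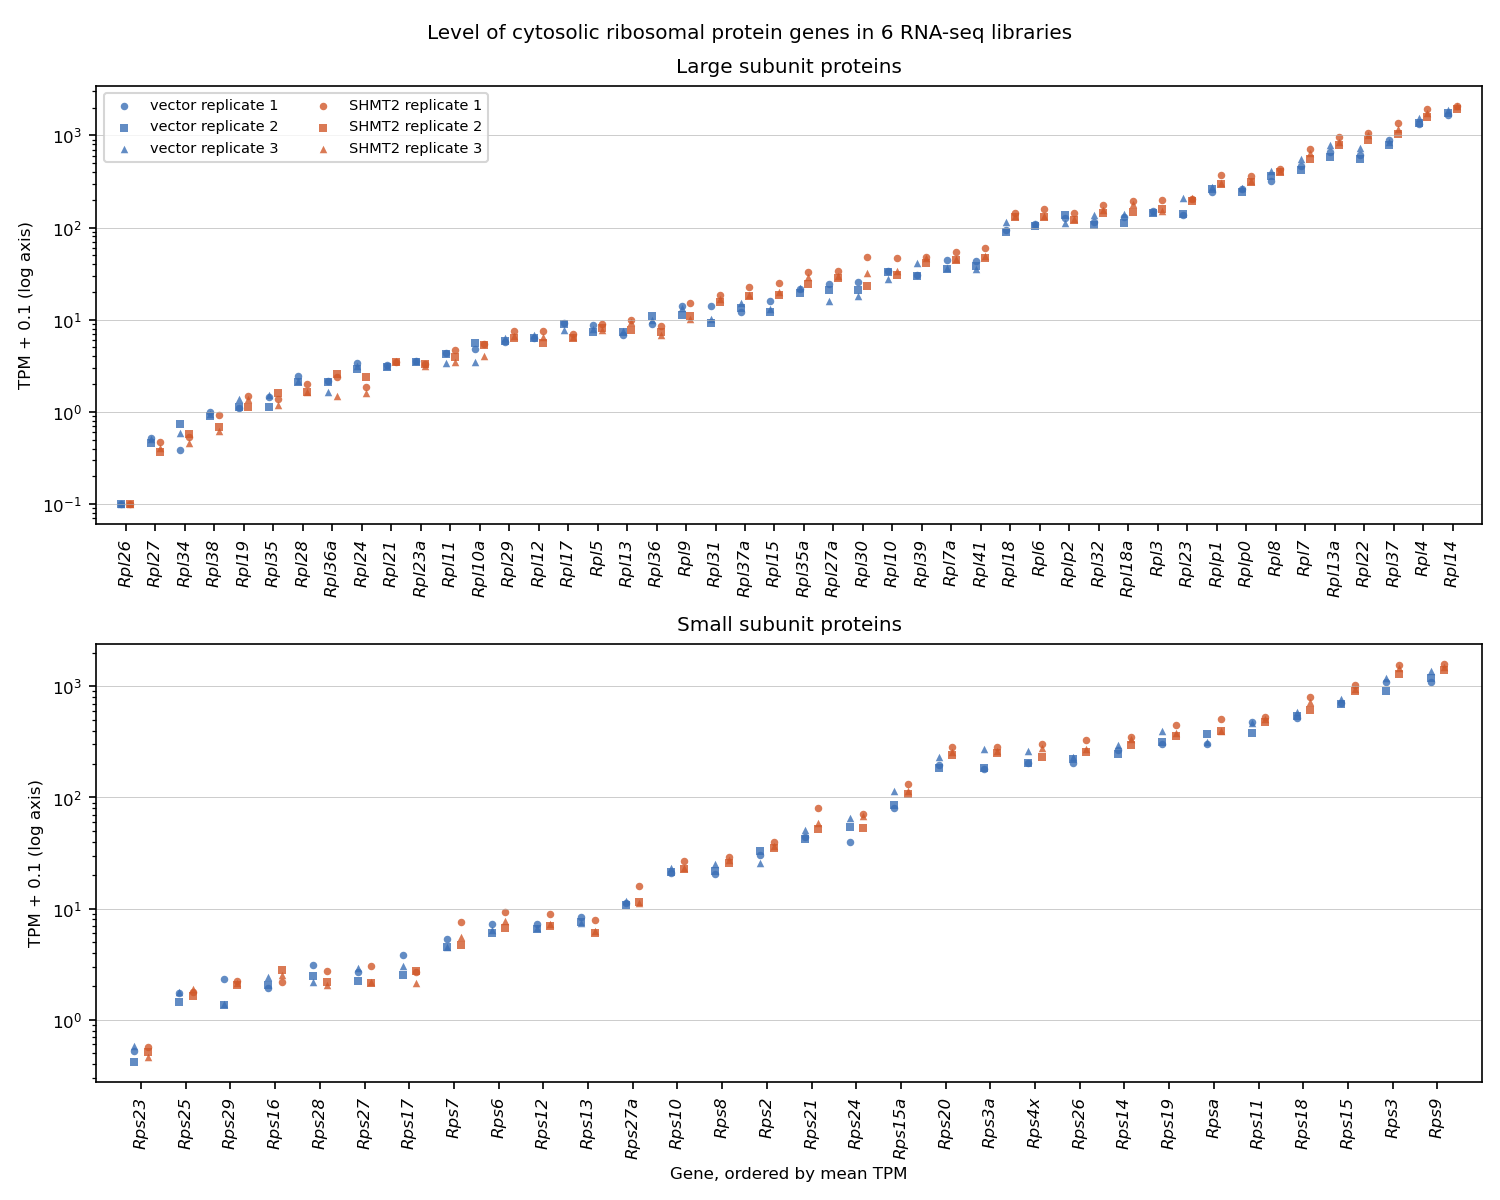
TPM plus 0.1 on a log axis for the 46 large subunit genes (top) and 30 of the 31 small subunit genes (bottom), ordered by mean, with 1 point per RNA-seq library (blue, vector; orange, SHMT2). From about 10 TPM upward most SHMT2 points sit above the vector points, and the lowest genes, Rpl26 and Rps23, lie more than 3 orders of magnitude under Rpl14.

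Pseudogenes named after the parent gene in RefSeq were counted as a description. All 5 canonical genes below 1 TPM had at least 1, as did 22 of the 25 between 1 and 10 TPM, 15 of the 17 between 10 and 100 TPM and 20 of the 30 at 100 TPM or more. Rps12, with 24 named pseudogenes, stood at 7.18 TPM, and Rpl31, with 23, at 14.0 TPM. Across the 77 genes, which share their libraries, the number of named pseudogenes and the log2 level had a Pearson r of -0.23 and a Spearman rho of -0.29. The sources used here do not say how the authors' counting treated reads that match both a gene and its copies, so the level of each of these genes is uncertain and the part of the copies in it was not tested.

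The start regions of members with very different listed levels are shown from RefSeq (GRCm38.p6), 60 bases before the start and 15 bases from it on, because the level of a gene and its promoter letters can then be read side by side. All are autosomal and written in the direction of transcription. Capitals mark CCGGAAG, CTCGCGAG and, where the first transcribed base is a C followed by at least 4 pyrimidines, that run from the start on. Rpl14 (chr9:120571457-120571531, plus strand) and Rps6 (chr4:86857353-86857427, minus strand) begin with such a run. Rpl22 (chr4:152325666-152325740, plus strand) and Rpl24 (chr16:55966215-55966289, plus strand) had the largest positive and the largest negative difference with SHMT2 among canonical genes. Rpl26 (chr11:68901506-68901580, plus strand) is listed at 0 TPM. Rpl39l (chr16:10170168-10170242, plus strand) is a methylated paralog described further on.
Rpl14: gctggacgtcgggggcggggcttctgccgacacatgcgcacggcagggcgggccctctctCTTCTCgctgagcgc
Rps6: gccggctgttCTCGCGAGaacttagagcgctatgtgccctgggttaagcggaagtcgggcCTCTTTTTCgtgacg
Rpl22: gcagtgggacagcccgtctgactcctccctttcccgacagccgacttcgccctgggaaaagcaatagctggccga
Rpl24: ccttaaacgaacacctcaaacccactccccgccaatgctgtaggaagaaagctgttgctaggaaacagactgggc
Rpl26: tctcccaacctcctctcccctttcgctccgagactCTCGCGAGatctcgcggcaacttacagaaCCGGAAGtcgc
Rpl39l: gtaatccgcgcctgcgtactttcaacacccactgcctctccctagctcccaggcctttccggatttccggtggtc

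RefSeq promoter windows, 250 bases before to 50 bases after the start, were listed for 57 of the 77 canonical genes and were searched on both strands for short motifs chosen with earlier results known. CCGGAAG, letters that ETS family factors bind, was found in 23 of the 57 windows (40.4%), against 12.4% of 16262 protein-coding windows and 20.1% of the 9164 windows whose start carried H3K4me3 in all 5 libraries. CTCGCGAG, the centre of a palindrome of CpG island promoters known to be bound by BANP, was found in 6 (10.5%; Rpl12, Rpl27a, Rps6, Rps19, Rpl26 and Rps28), against 1.35% of all windows and 2.12% of marked ones. A start exactly at a C followed by at least 4 pyrimidines was listed for 12 of the 57 genes (21.1%), against 2.22% of all windows and 2.24% of marked ones. CACGTG, the E-box letters of MYC, was found in 8.77% of members' windows, against 8.26% of all windows and 10.6% of marked ones. TATAAA was found in 8.77%, against 13% of all windows and 6.54% of marked ones. CCAAT was found in 31.6%, against 39.2% and 39.7% in the same order. The share with a pyrimidine start depends on the single start base that RefSeq lists, and the letters say nothing on whether a factor was bound.

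Most ribosomal protein genes stood higher in the SHMT2 libraries, by small amounts. In limma's test on log2(TPM + 1) with Benjamini-Hochberg adjustment no member had an adjusted p under 0.05, among 79 members with a mean of at least 1 TPM (0 of 11117 genes, 0%). At an unadjusted p under 0.05, 32 members were higher and 3 lower with SHMT2, against 11.3% and 5.4% of all genes tested. The number higher fell to 12 without SHMT2 replicate 1, 16 without SHMT2 replicate 3, 20 without vector replicate 2, 21 without vector replicate 1 and 20 with libraries scaled by median ratios. For 34 of the 79 members every SHMT2 library lay above every vector library, against 16.9% of all genes. For 5 the order was the opposite, against 8.26% of all genes. The median log2 fold change was 0.28 over the 79 members and 0.02 over all 11117 genes. That scaling left 26 members wholly above and 5 wholly below, against 12.9% and 11.9% of all genes. The other 12 members, 5 of them canonical, were below 1 TPM and were not tested. In cell populations of this kind fewer cells of a type and less RNA per cell cannot be told apart.

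Together the 91 symbols held 1.51%, 1.48% and 1.71% of the summed TPM in vector replicates 1 to 3. In the SHMT2 libraries they held 2.19%, 1.81% and 1.98%, so the lowest SHMT2 library lay above the highest vector library. The mean share was 1.57% ± 0.13 for the vector group and 1.99% ± 0.19 for the SHMT2 group (SD, 3 libraries each), which is 0.43 percentage points apart.

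The difference varied with the level of the gene. All 30 canonical genes at 100 TPM or more had a positive log2 fold change, from 0.04 for Rplp2 to 0.64 for Rpl22, with a median of 0.35, and 18 of them had groups that did not overlap. Between 10 and 100 TPM 16 of 17 were positive, with a median of 0.40, and 10 had all SHMT2 libraries above. Between 1 and 10 TPM the 25 genes were split, with 15 positive and 10 negative values and a median of 0.05. In that band 2 genes were wholly above (Rpl13 and Rpl21, 8%) and 5 wholly below (20%). Of all genes between 1 and 10 TPM, 12.1% were wholly above and 7.74% wholly below. Over all genes at 10 TPM or more the median was 0.04, and 19.4% had all SHMT2 libraries above. Across the 72 canonical genes tested the log2 fold change and the log2 level had a Pearson r of 0.57 and a Spearman rho of 0.60, a description over genes that share their libraries. The addition of 1 TPM before the logarithm shrinks low genes, but with 0.1 TPM the median of the 25 low genes was still 0.06.

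**Figure D2:**
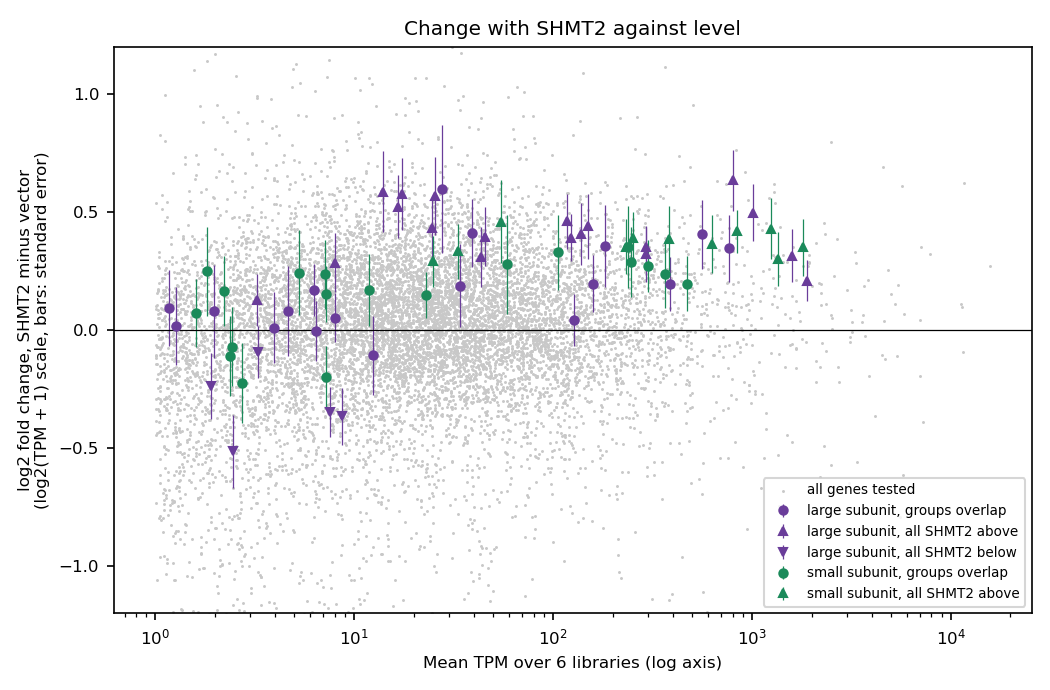
Log2 fold change (SHMT2 minus vector, log2(TPM + 1) scale) against mean TPM on a log axis, for canonical large (purple) and small (green) subunit genes with standard errors; grey points are all genes tested, clipped at 1.2 in either direction. Above 10 TPM 46 of 47 canonical genes lie above 0, while below 10 TPM they lie on both sides.

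Both subunits held members on either side of 0. Large subunit genes had a median log2 fold change of 0.30 (42 tested, 19 wholly above, 5 wholly below) and small subunit genes of 0.28 (30 tested, 11 above, 0 below). Over all genes tested 16.9% were wholly above and 8.26% wholly below. At 100 TPM or more the medians were 0.36 for 16 large and 0.35 for 14 small subunit genes. The difference between subunits was not tested.

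Library by library, the 47 canonical genes at 10 TPM or more shifted together. Their median deviation from the gene's mean over the 6 libraries was -0.20, -0.26 and -0.07 on the log2 scale in vector replicates 1 to 3 and 0.33, 0.05 and 0.15 in SHMT2 replicates 1 to 3. SHMT2 replicate 1 was the highest library for 46 of the 47 genes, and vector replicate 2 the lowest for 24. Over all 7253 genes at 10 TPM or more the same medians lay between -0.03 and 0.05. Without SHMT2 replicate 1, 45 of the 47 genes stayed higher in SHMT2, with a median of 0.28 in place of 0.35.

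Vector replicate 1, whose summed erythroid markers lay within the range of the SHMT2 libraries and whose myeloid markers lay under it, had ribosomal protein levels nearly as low as vector replicate 2, whose erythroid markers were highest. With that single vector library against the 3 SHMT2 libraries, 46 of the 47 genes were higher and their median was 0.40. Without vector replicate 1, limma called 1 member, Rpl31, higher (log2 fold change 0.76, adjusted p = 0.033), beside 3.88% of all genes called higher and 3.72% called lower. That comparison rests on the 2 vector libraries that stand apart in markers. Without these 2 the log2 fold change of Rpl31 was 0.24 (limma adjusted p = 0.38), and with the markers as a covariate it was 0.35 (limma adjusted p = 0.32). Plasma cell and T-cell markers were highest in the same library as the ribosomal protein genes, SHMT2 replicate 1, and their part in the difference was not tested.

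**Figure D3:**
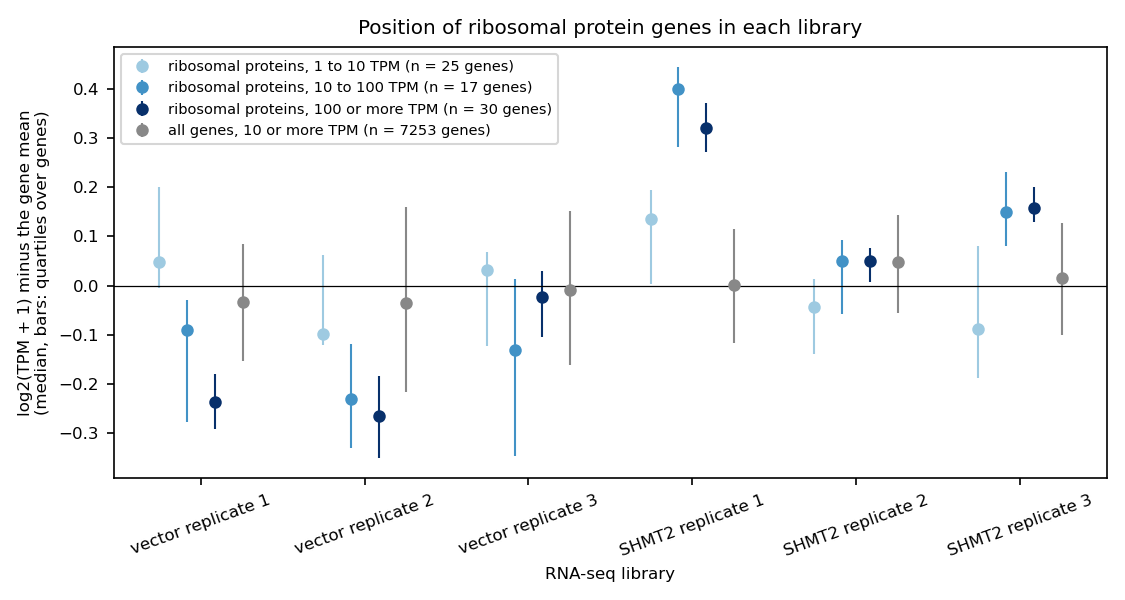
Median deviation of log2(TPM + 1) from each gene's mean, with quartiles over genes, in each RNA-seq library, for canonical genes in 3 bands of level and for all genes at 10 TPM or more (grey). Vector replicate 2 is lowest and SHMT2 replicate 1 highest in each band of ribosomal protein genes; SHMT2 replicates 2 and 3 lie above 0 in both bands from 10 TPM up and below 0 in the palest points, genes between 1 and 10 TPM.

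Among proteins of the large subunit the highest level belonged to Rpl14, listed at 1642, 1747 and 1865 TPM with vector and 2085, 1924 and 2067 TPM in SHMT2. All SHMT2 values were above all vector values, at a log2 fold change of 0.21 (SE 0.09, limma adjusted p = 0.31). Rpl4 stood at 1341, 1364 and 1541 TPM with vector and at 1950.3, 1593 and 1754 TPM in SHMT2, again with no overlap. Rpl37 stood at 881, 784 and 852 TPM against 1369, 1042 and 1164 TPM, a log2 fold change of 0.50 (SE 0.12, limma adjusted p = 0.20). These 3 genes, the most abundant of the large subunit, were thus separate between groups, each with an exact permutation p of 0.1, two-sided, the smallest that 3 against 3 allows.

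Rpl22, a large subunit protein outside the catalytic core that also binds viral and cellular RNAs and is deleted in some T-cell leukaemias, had the largest positive difference among canonical genes. It was listed at 606, 557 and 728 TPM with vector and at 1048, 883 and 998 TPM in SHMT2. All SHMT2 libraries were above all vector libraries. The vector mean was 630.4 ± 87.8 TPM and the SHMT2 mean 976 ± 84.7 TPM (SD, 3 libraries each), a log2 fold change of 0.64 (SE 0.13, limma adjusted p = 0.20).

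The next 4 by size of difference, with groups apart, were lower in abundance and all of the large subunit. Rpl31, which sits at the rim of the exit tunnel, was at 14.1, 9.08 and 10.0 TPM with vector and at 18.5, 15.5 and 16.8 TPM in SHMT2. Rpl15, which can be mutated in Diamond-Blackfan anaemia, was at 15.9, 12.2 and 13.1 TPM against 24.8, 18.2 and 19.9 TPM. In both genes vector replicate 1 was the highest vector library, and it lay under every SHMT2 library. Rpl27a was at 24.3, 21.1 and 16.0 TPM against 33.9, 28.2 and 29.6 TPM. Rpl37a was at 11.9, 13.3 and 14.99 TPM against 22.8, 17.9 and 18.4 TPM. Their log2 fold changes were 0.59 for Rpl31, 0.58 for Rpl15, 0.57 for Rpl27a and 0.52 for Rpl37a, with standard errors of 0.13 to 0.17, and adjusted p-values of 0.205 to 0.212 in limma's test. Without vector replicates 2 and 3 they were 0.24 for Rpl31, 0.32 for Rpl27a and 0.37 for Rpl15.

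The acidic stalk, which recruits elongation factors, did not move evenly. Rplp0, its base, stood at 262, 244 and 269 TPM with vector and at 358, 314 and 319 TPM in SHMT2, with a log2 fold change of 0.35 (SE 0.09) and no overlap. Rplp1 also had all SHMT2 libraries above all vector libraries, with a log2 fold change of 0.32. For Rplp2 the groups overlapped and the log2 fold change was 0.04 (SE 0.11), and Rpl12, which binds beside the stalk base, had -0.00 (SE 0.13). Rpl5 and Rpl11, which assemble with the 5S RNA and bind the p53 ligase Mdm2 when assembly fails, overlapped between groups. Rpl5 was at 8.56, 7.30 and 7.75 TPM with vector against 8.79, 8.10 and 7.71 TPM in SHMT2, and Rpl11 at 4.27, 4.14 and 3.31 TPM against 4.61, 3.82 and 3.41 TPM. Their log2 fold changes of 0.05 and 0.01 turned negative when vector replicates 2 and 3 were left out, at -0.06 and -0.10.

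Around the peptidyl transferase centre and the joining face none of Rpl3, Rpl10, Rpl23 and Rpl24 had all SHMT2 libraries above. Rpl10, needed for subunit joining and mutated in T-cell leukaemia, was at 33.9, 33.1 and 27.9 TPM with vector and at 46.3, 30.1 and 33.6 TPM in SHMT2, where replicate 1 alone was above the vector range. Of the 8 proteins of the exit tunnel and its rim, 7 were tested, and Rpl4 and Rpl31 were wholly above while Rpl17 and Rpl23a were wholly below. Among all canonical genes tested 41.7% were wholly above and 6.94% wholly below, against 16.9% and 8.26% of all genes. Differences between these short lists and other members were not tested.

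Rpl24 had the largest negative difference among canonical genes. It is a protein of the bridge between subunits, and its partial loss is known to slow MYC-driven B-cell lymphoma in mice. It was listed at 3.28, 2.85 and 3.01 TPM with vector and at 1.78, 2.28 and 1.496 TPM in SHMT2, so every SHMT2 library was lower. Its log2 fold change of -0.51 (SE 0.15) had an adjusted p of 0.21 in limma's test.

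The other 4 canonical genes with every SHMT2 library below every vector library also belonged to the large subunit and lay under 10 TPM. Rpl36 was at 8.95, 10.8 and 9.79 TPM with vector and at 8.38, 7.23 and 6.69 TPM in SHMT2, a log2 fold change of -0.37 (SE 0.12). Rpl17, at the tunnel exit, was at 9.07, 8.90 and 7.65 TPM against 6.82, 6.25 and 6.39 TPM, a log2 fold change of -0.35 (SE 0.11). Rpl28 was at 2.34, 2.03 and 2.08 TPM against 1.90, 1.55 and 1.56 TPM, and Rpl23a, a docking site of the signal recognition particle, at 3.49, 3.33 and 3.43 TPM against 3.20, 3.21 and 3.02 TPM. For Rpl23a the groups were apart by a narrow margin, with a log2 fold change of -0.09 (SE 0.11, limma adjusted p = 0.69). RefSeq names 11 pseudogenes each for Rpl36 and Rpl17, 14 for Rpl23a, 4 for Rpl28 and 0 for Rpl24.

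At the other end of the large subunit, Rpl27 was listed at 0.425, 0.357 and 0.406 TPM with vector and at 0.376, 0.270 and 0.305 TPM in SHMT2. Rpl34 was at 0.284, 0.630 and 0.487 TPM against 0.431, 0.475 and 0.356 TPM. Both pairs of groups overlapped, and with Rpl26 at 0 these 3 genes were not tested.

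In the small subunit, genes for proteins near the mRNA entry were among the most abundant. Rps3, at the mRNA entry, was at 1104, 913 and 1185 TPM with vector and at 1551, 1297 and 1453 TPM in SHMT2, with no overlap and a log2 fold change of 0.43 (SE 0.13). Rps9 was at 1086, 1197 and 1377 TPM against 1595, 1410.1 and 1489 TPM, also with every SHMT2 library above. Its log2 fold change of 0.30 (SE 0.11) became 0.46 without vector replicates 2 and 3. Of the 4 genes listed for the mRNA channel, Rps2, Rps3 and Rps15 had all SHMT2 libraries above. Their log2 fold changes were 0.33, 0.43 and 0.42, and Rps23 was under 1 TPM. For comparison, 16.9% of all genes tested and 59.6% of canonical genes at 10 TPM or more were wholly above. A difference between this list and other members was not tested. Rps23 was at 0.418, 0.317 and 0.481 TPM with vector and at 0.474, 0.413 and 0.361 TPM in SHMT2.

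Of 9 genes listed as mutated in Diamond-Blackfan anaemia, Rps26 and Rpl35a were wholly above in SHMT2 (22.2%), a share near that of all genes (16.9%). Their median log2 fold change, over the 9 genes, was 0.24. The list is partial and leaves out Rpl15, which was wholly above, so the share depends on the genes listed. Rps19, the gene most often mutated in that anaemia, was at 300.0, 316 and 398 TPM with vector and at 451, 359 and 383 TPM in SHMT2. Vector replicate 3 lay within the SHMT2 range, for a log2 fold change of 0.24 (SE 0.14, limma adjusted p = 0.43). It became 0.40 without vector replicates 2 and 3 and 0.14 without SHMT2 replicate 1. Rps14, lost in the 5q- syndrome, was at 266, 247 and 298 TPM against 353, 295 and 332 TPM, where vector replicate 3 lay just above SHMT2 replicate 2. Rpsa, also known as the laminin receptor, was at 302, 374 and 318 TPM against 509, 399 and 398 TPM, with no overlap and a log2 fold change of 0.39 (SE 0.14).

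Rps6, the target of S6 kinase, was listed far lower, at 7.12, 5.91 and 6.31 TPM with vector and 9.21, 6.56 and 7.68 TPM in SHMT2. Its groups overlapped, with a log2 fold change of 0.24 (SE 0.14), which became 0.11 without vector replicates 2 and 3 and 0.13 without SHMT2 replicate 1. Rps29 and Rps25 were the lowest tested genes of the small subunit. Rps29 was at 2.24, 1.27 and 1.28 TPM with vector and 2.11, 1.97 and 2.04 TPM in SHMT2, and its log2 fold change of 0.25 became -0.09 without vector replicates 2 and 3. Rps25 was at 1.64, 1.33 and 1.66 TPM against 1.68, 1.53 and 1.80 TPM, a log2 fold change of 0.07 (SE 0.14), or 0.02 without vector replicates 2 and 3.

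Paralogs of ribosomal proteins were listed either above 10 TPM or near 0. Rps27l, a p53 target, was at 14.8, 14.7 and 13.7 TPM with vector and at 17.03, 19.7 and 21.2 TPM in SHMT2, with no overlap and a log2 fold change of 0.39 (SE 0.11, limma adjusted p = 0.21). Unlike most members at that level it was lowest of the SHMT2 libraries in replicate 1. Rpl36al, an intronless copy of Rpl36a, was at 34.2, 27.8 and 36.2 TPM against 51.7, 39.9 and 40.4 TPM, while Rpl36a itself had a mean of 1.96 TPM. Rpl7l1 was at 12.2, 12.5 and 12.6 TPM against 13.4, 14.7 and 15.01 TPM, again with groups apart. Rpl22l1, the paralog whose expression is known to be held down by Rpl22, was at 20.5, 13.8 and 17.8 TPM against 19.0, 14.6 and 18.1 TPM, with groups that overlapped and a log2 fold change of -0.00 (SE 0.17), while Rpl22 had 0.64. That value of Rpl22l1 changed sign when single libraries were left out, up to 0.12 without vector replicate 1, and was -0.25 without vector replicates 2 and 3.

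Rpl10l, known from the testis, was listed at 0 in all 6 libraries, and Rpl3l, known from muscle, did not exceed 0.319 TPM and was 0 in SHMT2 replicates 1 and 2. Rps4y2 stayed between 0.030 and 0.263 TPM. Rpl39l was at 0, 0.411 and 0.087 TPM with vector and at 0.073, 6.08 and 0.069 TPM in SHMT2, so its mean rested on SHMT2 replicate 2. Its log2 fold change of 0.80 (SE 0.76) became -0.11 without that library. Rps19bp1, which encodes a protein that binds Rps19 and SIRT1, was at 17.2, 20.6 and 18.5 TPM with vector and 22.8, 22.7 and 20.7 TPM in SHMT2, with groups apart by a narrow margin.

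Other genes of protein synthesis were described from lists chosen with earlier results known. Of 19 tested translation genes whose mRNAs carry TOP motifs, 12 had all SHMT2 libraries above and 0 below, 9 were higher and 0 lower at an unadjusted p under 0.05, and the median log2 fold change was 0.27. Over all genes tested 16.9% were wholly above and 8.26% below, and 11.3% were higher and 5.4% lower at that threshold. Gnb2l1, which encodes the 40S scaffold RACK1, was at 2412, 2068 and 2521 TPM with vector and 3301, 2828 and 2996 TPM in SHMT2. Npm1, a nucleolar chaperone, was at 219.9, 212 and 221 TPM against 358, 267 and 309 TPM. Fau, at 0.815 ± 0.136 TPM in SHMT2 and 0.788 ± 0.197 TPM in vector (SD, n = 3 each), was listed low like several canonical members.

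Of 43 genes of ribosome assembly and rRNA synthesis 30 were wholly above and 0 below, against 16.9% and 8.26% of all genes. At an unadjusted p under 0.05, 20 were higher and 1 lower, against 11.3% and 5.4% of all genes, and the median was 0.24. Nop16 was at 28.4, 28.4 and 22.6 TPM with vector and 38.3, 37.4 and 42.2 TPM in SHMT2, and Nop58, a core box C/D snoRNP protein, had a log2 fold change of 0.47 (SE 0.11). The 1 lower gene was Polr1b, a subunit of RNA polymerase I, at 30.0, 52.9 and 52.4 TPM with vector and 29.3, 30.0 and 27.9 TPM in SHMT2, high in vector replicates 2 and 3. Among 9 genes that control ribosomal protein mRNAs, such as Mtor, Larp1 and Myc, 0 were wholly above or below, 0 passed the unadjusted threshold, and the median was 0.07.

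All 74 mitochondrial ribosomal protein genes tested had a positive log2 fold change, against 5918 of all 11117 genes. In 45 of them all SHMT2 libraries were above, against 16.9% of all genes, and their median was 0.28. In these genes SHMT2 replicate 3 was the highest library most often, for 31 of 74, and replicate 1 for 21, whereas replicate 1 was highest for 46 of the 47 cytosolic genes. The difference between the cytosolic and mitochondrial sets was not tested.

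H3K4me3, a histone mark of active promoters, was present at the start of every canonical gene with a listed start, whatever its RNA level. A peak within 1 kb of the start was called by the authors in all 5 libraries for 57 of 57 such genes, against 56.2% of other genes. This held for the 5 genes below 1 TPM (16.4% of other genes at that level) and for the 18 between 1 and 10 TPM (81.7%). At higher levels most other genes were marked as well, with 94.95% between 10 and 100 TPM and 96.06% at 100 TPM or more. At Rpl26, listed at 0 TPM, the peak was stronger by fold enrichment than 95.4% to 99.5% of all peaks in each of the 5 lists. Among the others under 1 TPM the percentile was 94.5 to 98.5 at Rps23 and 91.3 to 94.5 at Rpl38. It was 74.0 to 87.8 at Rpl34 and 65.5 to 96.3 at Rpl27. At Rpl14, the most abundant member, it was 78.7 to 86.3, and at Rps18, with a mean of 631 TPM, 96.0 to 99.9. High and lower percentiles were thus found among genes of low and of high RNA level. The median percentile of the canonical peaks was 89.1 to 92.4. It was 81.6 to 83.7 over all marked starts and 85.9 to 88.3 over marked starts at 100 TPM or more. The fold enrichments are the authors' values ranked within each list. The 20 canonical genes without a listed start had a peak at either gene end in all 5 libraries. For 12 of them the start had been taken as the end with H3K4me3, so a peak in at least 1 library was given in advance. The share of other genes by this rule was not counted.

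Of the 66 members with a listed start 62 carried H3K4me3 in all 5 libraries. The exceptions were the paralogs Rpl10l, Rpl39l and Rpl3l and the pseudogene symbol Rpl31-ps12. H3K4me1, a mark of enhancers and promoter flanks, had a peak within 1 kb in all 4 libraries at 49 of the 57 canonical starts (86.0%), against 42.9% of other genes. The gap varied with level. Canonical shares were 80% under 1 TPM, 83.3% at 1 to 10 TPM, 78.6% at 10 to 100 TPM and 95% at 100 TPM or more. Other genes had 11.7%, 60.9%, 75.9% and 69.9% in the same order. H3K4me1 seldom covered the start base itself, at 10.5% and 7.02% of canonical starts in the vector libraries and 29.8% and 22.8% in the SHMT2 libraries. Over all starts the same shares were 16.1% and 12.2% in vector and 29.7% and 28.0% in SHMT2. The SHMT2 lists were longer, with 48993 and 52056 peaks against 37274 and 33119, so the shares do not show a change.

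DNA at the ribosomal protein starts was almost free of methylation in both groups. Cytosines of CpG sites within 1 kb of the start, at least 3 with coverage of 10 in all 6 libraries, could be summed for 74 members, 66 of them canonical. None of the 74 was called between groups in the moderated quasi-binomial test (0 of 12425 starts, 0%), and 0 passed an unadjusted p under 0.05, against 2.86% of all starts. Over the canonical starts the median level was 0.257%, and 56 of 66 were under 1%, against 58.9% of all starts and 82.7% of other genes at 100 TPM or more. The 6 libraries had medians between 0.240% and 0.301%, and the median difference over the 74 members was -0.01 percentage points. For 12 members with no listed start it was taken as the gene end that carried H3K4me3, so mark and methylation are not independent there.

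Canonical genes with low and with high listed RNA levels both had low methylation. Rpl26, at 0 TPM, had 1.40% over 55 cytosines, with 1.08% to 1.98% in single libraries and at least 4555 calls in each. Rps23 and Rpl34, both under 1 TPM, were under 0.3%. Rpl14 and Rpl4 were under 0.5% as well. Among the autosomal canonical starts, those of Rpl22 and Rpl21 had the highest levels, at 10.6% and 10.2%.

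At Rpl22, on chromosome 4 with its listed start at base 152325726, the methylated calls came from 7 of 29 cytosines. These were 49.7% to 96.5% methylated and lay at positions -852 to -678 relative to the start, while the other 22 were under 5%. The start as a whole was at 12.5%, 12.0% and 11.7% in vector and at 8.27%, 6.86% and 12.1% in SHMT2, over at least 1502 calls in each library. SHMT2 replicates 1 and 2 were lower, replicate 3 lay within the vector range, and the difference of -3.01 percentage points had an adjusted p of 0.92 in the moderated test. Rpl21 had 6 cytosines at 85.9% to 98.0% and 28 under 5%. Rpl10a (3.45%) and Rpl19 (3.01%) likewise had a minority of methylated cytosines, all upstream of the listed start. The RefSeq span of Rpl22 begins at base 152324436, and that of Rpl19 at base 98022003 with its listed start at base 98026710. In these 2 genes the methylated cytosines upstream of the listed start thus lay inside the annotated span.

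The paralogs listed near 0 were methylated instead, where a start could be measured. Rpl10l had 94.1% over 19 cytosines, Rpl39l 89.3% over 22 and Rpl3l 77.0% over 24, and these 3 had no H3K4me3 peak in any library. Single libraries ranged from 92.8% to 95.2% for Rpl10l, from 85.5% to 93.0% for Rpl39l and from 74.4% to 80.2% for Rpl3l, and the groups overlapped in all 3. The adjusted p in the moderated test was 0.92 for Rpl10l and Rpl3l and 0.95 for Rpl39l. In the ERRBS libraries Rpl39l had no library below 85.5%, while its RNA was listed at 6.08 TPM in 1 RNA-seq library, and the labels do not tie RNA-seq and ERRBS libraries together. The expressed paralogs Rpl22l1, Rps27l and Rpl36al were at or under 0.4%, and Rpl7l1 at 4.30%, and all 4 carried H3K4me3 in all 5 libraries.

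**Figure D4:**
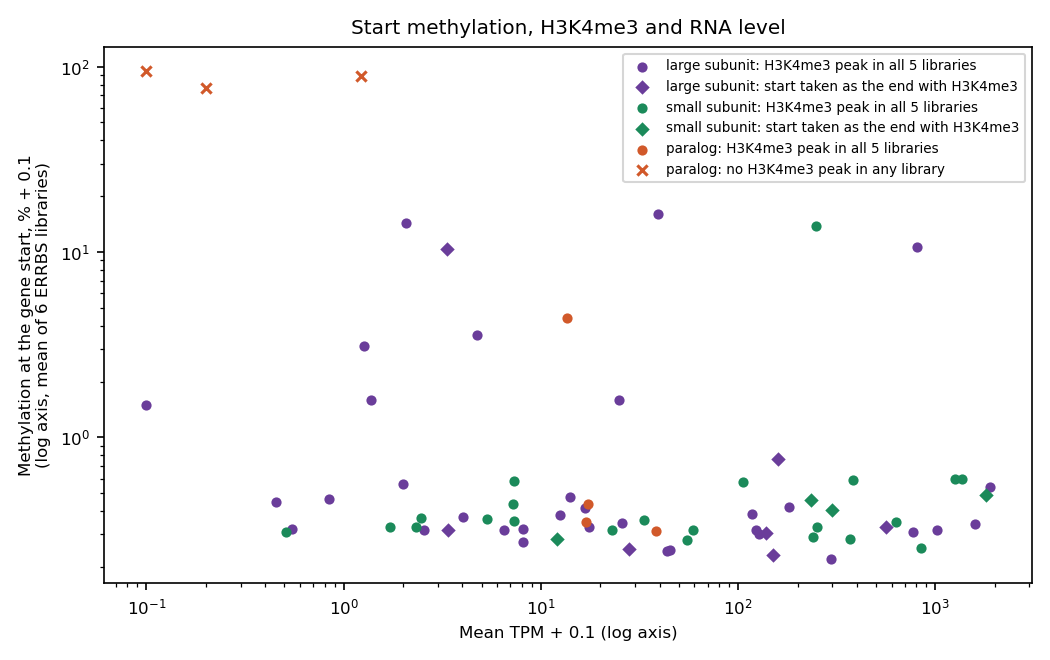
Mean methylation at the gene start (percent plus 0.1, log axis) against mean TPM plus 0.1 (log axis) for canonical genes and paralogs; circles have H3K4me3 in all 5 libraries, crosses in none, and diamonds mark starts chosen by H3K4me3. Canonical genes lie low at every RNA level, and the 3 crosses, Rpl10l, Rpl39l and Rpl3l, lie at 77.0% or more.

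The remaining canonical exceptions were on the X chromosome and varied between libraries of the same group. Rps4x, a small subunit protein, was methylated at 32.0% in vector replicate 1 (95% Wilson interval 29.3% to 34.9%, 1043 calls) and at 42.7% in SHMT2 replicate 2 (39.5% to 46.0%, 866 calls). In the other 4 libraries it was at 0.601% (0.205% to 1.75%), 5.04% (3.55% to 7.11%), 0.311% (0.0853% to 1.13%) and 1.14% (0.524% to 2.47%). Rpl36a was at 34.8% (29.4% to 40.7%) and 44.3% (37.5% to 51.4%) in the same 2 libraries and between 0 and 4.30% in the others, with 0 of 262 calls in SHMT2 replicate 1. That count of 0 allows a level of up to 1.145% as 3 counts of the total, and the upper Wilson bound is 1.445%. Rpl39 was at 34.2% (31.8% to 36.7%) and 36.9% (34.2% to 39.7%), and between 4.79% and 7.06% elsewhere. These intervals cover counting error only, and calls on 1 molecule are not independent.

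The medians over all 369 X-linked starts showed the same division, at 33.9%, 1.36% and 5.34% in vector replicates 1 to 3 and 0.914%, 36.3% and 0.935% in SHMT2 replicates 1 to 3. Each group thus held 1 library with high X-linked start methylation. The difference between groups was 2.17 percentage points for Rps4x, 1.62 for Rpl36a and 0.07 for Rpl39, far inside the spread within groups. In the RNA-seq libraries, which the labels do not tie to the ERRBS libraries, Rps4x was at 203, 202 and 261 TPM with vector and at 302, 233 and 278 TPM in SHMT2, and Rpl39 at 30.5, 29.7 and 41.1 TPM against 47.3, 41.0 and 46.4 TPM. In both genes vector replicate 3 overlapped the SHMT2 range.

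**Figure D5:**
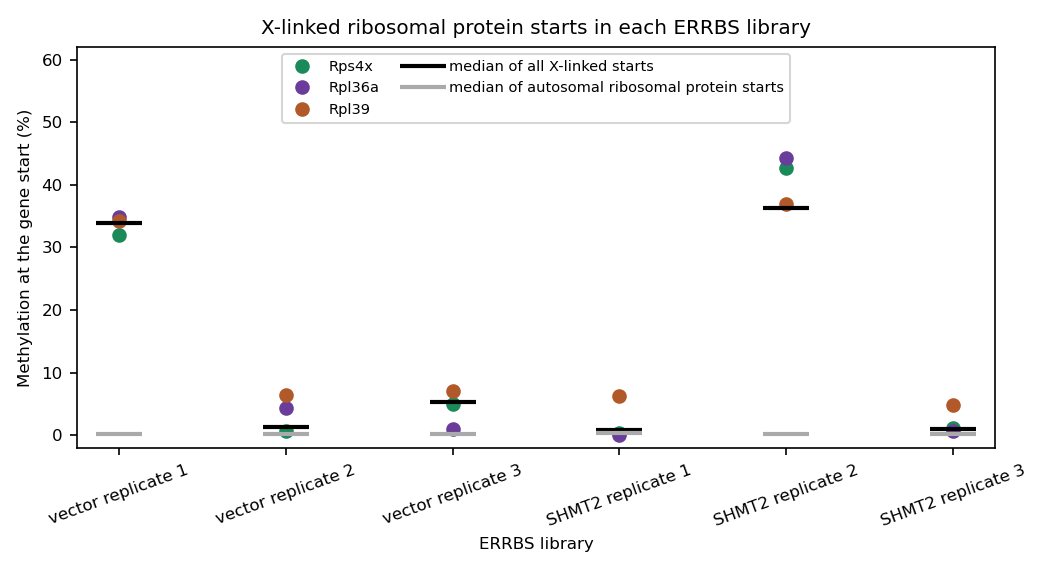
Methylation (%) at the starts of Rps4x, Rpl36a and Rpl39 in each ERRBS library, with the median of all 369 X-linked starts (black bar) and of the 63 autosomal canonical starts (grey bar). Vector replicate 1 and SHMT2 replicate 2 sit between 32.0% and 44.3% for these genes, and the other libraries at 7.06% or less.

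The difference with SHMT2 was also set beside the promoter letters. Among canonical genes tested, the 21 with CCGGAAG had a median log2 fold change of 0.37 and the 31 without it of 0.28. The 11 that start at a C followed by pyrimidines had 0.21 and the 41 others 0.31. The 5 with CTCGCGAG had 0.24, and their median level was 7.13 TPM, against 39.3 TPM for the 47 without it. These differences were not tested.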

How the data were processed

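RNA-seq values are the authors' deposited TPM, 1 table per library, which used STAR and mm10 per the submitters' processing notes; the sources used here do not name the tool that made TPM. ChIP-seq values are MACS2 peaks per library on BWA alignments, with a peak score, a fold enrichment (a ratio over background), and p- and q-values as −log10, all as deposited by the authors. ERRBS tables, made with Bismark and Bowtie2 per the submitters' processing notes, hold the coverage (a count of calls) and the percent of C per cytosine per the file headers; coverage averaged 63.0 to 71.6 calls. The input libraries were not used here.

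Genes averaging 1 TPM or more were tested with limma 3.58.1 (R 4.3.3, trend, no block) on log2(TPM + 1), Benjamini-Hochberg over 11117 genes. Start methylation was tested by binomial regression with moderated dispersion. Both were tested on simulated data. Starts came from the RefSeq promoter table (GRCm38.p6); where none was listed, the end with H3K4me3 was used. All 91 members were matched to RefSeq. Named genes were the 3 highest and 3 lowest of each subunit, the 5 largest differences in each direction with groups apart, 9 fixed members, all paralogs and the 5 most methylated starts; others named were chosen after their values were seen. Some genes that this rule covers are counted in the totals but are not reported here. Members, lists and motifs were chosen with earlier results of these data known. For ERRBS SHMT2 replicates 2 and 3 the transfection labels are SHMT3 and SHMT4; groups follow the titles. Alternatives covered the pseudocount, filters, scaling, markers as a covariate, coverage, windows and left-out libraries.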

Additional observations from a re-analysis of the deposited data

How the results depend on the processing

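The count of members called by limma was 0 under all alternatives but the one without vector replicate 1 (range 0 to 1 over left-out libraries). The number of members wholly above ranged from 26 with median ratio scaling, where 12.9% of all genes were wholly above, to 51 without vector replicates 2 and 3, where the share was 43.2%. Members wholly below numbered 2 with a mean of at least 5 TPM, which removes the low genes, 10 without vector replicates 2 and 3, and 5 to 8 when 1 library was left out. The median log2 fold change of members stayed between 0.22 and 0.34. The replicate numbers did not pair the samples (correlations of same-numbered deviations of -0.42, -0.33 and -0.06 in RNA-seq and -0.54, -0.64 and 0.19 in ERRBS). With a replicate block 0 members were called, 25 were higher and 1 lower at an unadjusted p under 0.05, and 0 ERRBS starts were called.

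The median methylation difference of members turned to 0.84 percentage points over the 8 members with a mean level between 5 and 95 percent. It lay between -0.03 and 0.00 when 1 library was left out. Restriction to autosomes, an alternative added after seeing the data, gave 0 called starts. The other sign changes concerned single named genes. Without vector replicates 2 and 3 the log2 fold change became -0.091 for Rps29, -0.057 for Rpl5, -0.099 for Rpl11 and -0.0091 for Rpl36a. With the marker covariate it became -0.023 for Rpl5 and -0.018 for Rpl11, with median ratio scaling -0.027 for Rpl11, and with scaling to the total without members 0.0048 for Rpl22l1. When 1 library was left out, Rpl11 ranged from -0.084 to 0.089, Rpl22l1 from -0.15 to 0.12, Rpl39l from -0.11 to 1.26 and Rpl36a from -0.022 to 0.25. The cause was not tested. A peak over the start base itself in all 5 libraries was found for 48 members, against 62 within 1 kb. The RNA-seq depth is unknown, which limits what can be said of members under 1 TPM.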

Other observations

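The 5 symbols that name pseudogenes belong to no subunit. Rps19-ps3 was listed at 1.45, 1.86 and 3.06 TPM with vector and 1.77, 1.26 and 1.67 TPM in SHMT2, and Rps15a-ps6 stayed between 0.218 and 0.800 TPM. Rps15a-ps4 and Rpl31-ps12 did not exceed 0.242 TPM, and Rpl34-ps1 was listed at 0 in all libraries. Their parent genes Rps19 and Rps15a had means of 368 and 106 TPM. RefSeq names 13 pseudogenes for Rps19 and 8 for Rps15a, more than the tables list as symbols.

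Rptor, a subunit of mTORC1 from the list of genes that control ribosomal protein mRNAs, was at 85.0 TPM in SHMT2 replicate 2 and between 40.0 and 44.5 TPM in the other 5 libraries. Myc was at 146 TPM in vector replicate 2 and between 38.6 and 68.3 TPM elsewhere.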
